A study of Homo sapiens with 4 samples.

Results

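The genes described here encode the machinery that degrades RNA in human cells: the RNA exosome with its nucleases and nuclear adaptors, the deadenylases that shorten poly(A) tails, the enzymes and activators of decapping, and 4 proteins that recruit deadenylases to particular mRNAs. Members were taken from a list of 41 gene symbols, and a member was measured when a row of the array table carried its symbol alone in the platform annotation. Such a row existed for 37 of the 41 genes, among 33616 named genes in all, and each of the 37 had a single row. EXOSC4, CNOT1, PAN2 and PAN3 appeared only on rows that also name a second gene, and their rows are given separately.

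The cells were H929, an established human multiple myeloma line. The treated samples were 2 samples given meayamicin B, a synthetic inhibitor of splicing whose target is SF3B, the branch site recognition complex, at 3 nM over 8 h, and the comparison was with 2 untreated samples of the same line, also labelled 8 h. All 4 RNA samples were hybridised to a whole-transcript array of their own, and the values are log2 expression after RMA, the authors' background correction, quantile normalization and probe summary. Whether the replicates were grown separately is not in the labels, so the p-values rest on the spread between arrays, which may be technical. Of 10 plasma cell markers, 9 (SDC1, TNFRSF17, CD38, IRF4, PRDM1, XBP1, MZB1, SLAMF7 and POU2AF1) were above background on all 4 arrays, and CD27 was on 0. Of the markers of other cell types, 2 of 3 for B cells (PAX5 and FCER2), 1 of 4 for T cells (CD3E), 1 of 5 for monocytes (FCN1) and 4 of 6 for epithelium or fibroblasts (KRT8, KRT18, COL1A1 and COL1A2) were above background on all 4 arrays. CSF1R was above it on 3 arrays and CD14 on 1, and MS4A1, CD3D, CD3G, CD2, LYZ, S100A8, EPCAM and DCN on 0. Their part in the results was not tested. Background is the 95th percentile of 612 negative control rows, which was 5.03 and 5.13 on the meayamicin B arrays and 4.50 and 4.76 on the untreated arrays. Every member's row was above it on both arrays of at least 1 group, and 36 of 37 were above it on all 4 arrays. The number of arrays limits the precision: the standard error of a member's log2 fold change lay between 0.18 and 0.24.

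Cytoplasmic mRNA decay usually begins when PAN2-PAN3 and the CCR4-NOT complex remove the poly(A) tail. The transcript is then decapped by DCP2 and digested from its 5′ end by XRN1, or digested from its 3′ end by the exosome. The exosome is a barrel of subunits without catalytic activity in human cells that threads RNA to nucleases. These are DIS3 or its cytoplasmic paralogue DIS3L and, in the nucleus, EXOSC10. In the nucleus the same exosome, guided by adaptor complexes such as NEXT and PAXT, removes faulty and unspliced transcripts. DIS3 is recurrently mutated in multiple myeloma.

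Of the 37 members, 33 did not pass the test, and 23 of the 33 had a log2 fold change within 0.3 of 0. With 2 arrays per group, not passing does not show that a gene was unchanged. The other 4 of the 37 passed the test. DCP1B, EXOSC8 and CNOT2 fell and ZCCHC8 rose with meayamicin B in limma's trended fit, in which the prior variance follows the signal level, at an adjusted p under 0.05 over all 135750 rows. The share called was 10.8% of the members, against 9.10% of 10402 protein-coding genes above background and 3.15% of all named genes, so it lay near the share among expressed protein-coding genes. In limma's default fit 0 of 37 members passed, against 0.0327% of named genes, and 8 had an unadjusted p under 0.05 (21.6%, against 27.6% of protein-coding genes above background). The median log2 fold change of the 37 members was -0.13, with a range of -1.53 to 0.71, beside a median of -0.14 over the 10402 protein-coding genes above background. The 2 groups did not overlap for 16 members that were lower with meayamicin B (43.2%, against 45.1% of those protein-coding genes) and for 7 that were higher (18.9%, against 18.1%). Of the 4 genes called, DCP1B and EXOSC8 changed at least 2-fold, beside 4.70% of protein-coding genes above background that were called and changed as much. When only rows above background were tested, 9 members passed the trended fit, against 19.9% of protein-coding genes, and 2, DCP1B and EXOSC8, passed the default fit, against 9.24%. The trended count moved when an array was left out, and so did the share of all protein-coding genes above background. It was 1, DCP1B alone, without untreated replicate 2 (2.33% of those genes), and 2, DCP1B and ZCCHC8, without untreated replicate 1 (3.40%) or without meayamicin B replicate 2 (4.50%). It was 3 without meayamicin B replicate 1 (7.35%). Each of these fits has 1 array in a group and 1 residual degree of freedom, so the lone array is assumed to vary like the other group.

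**Figure D1:**
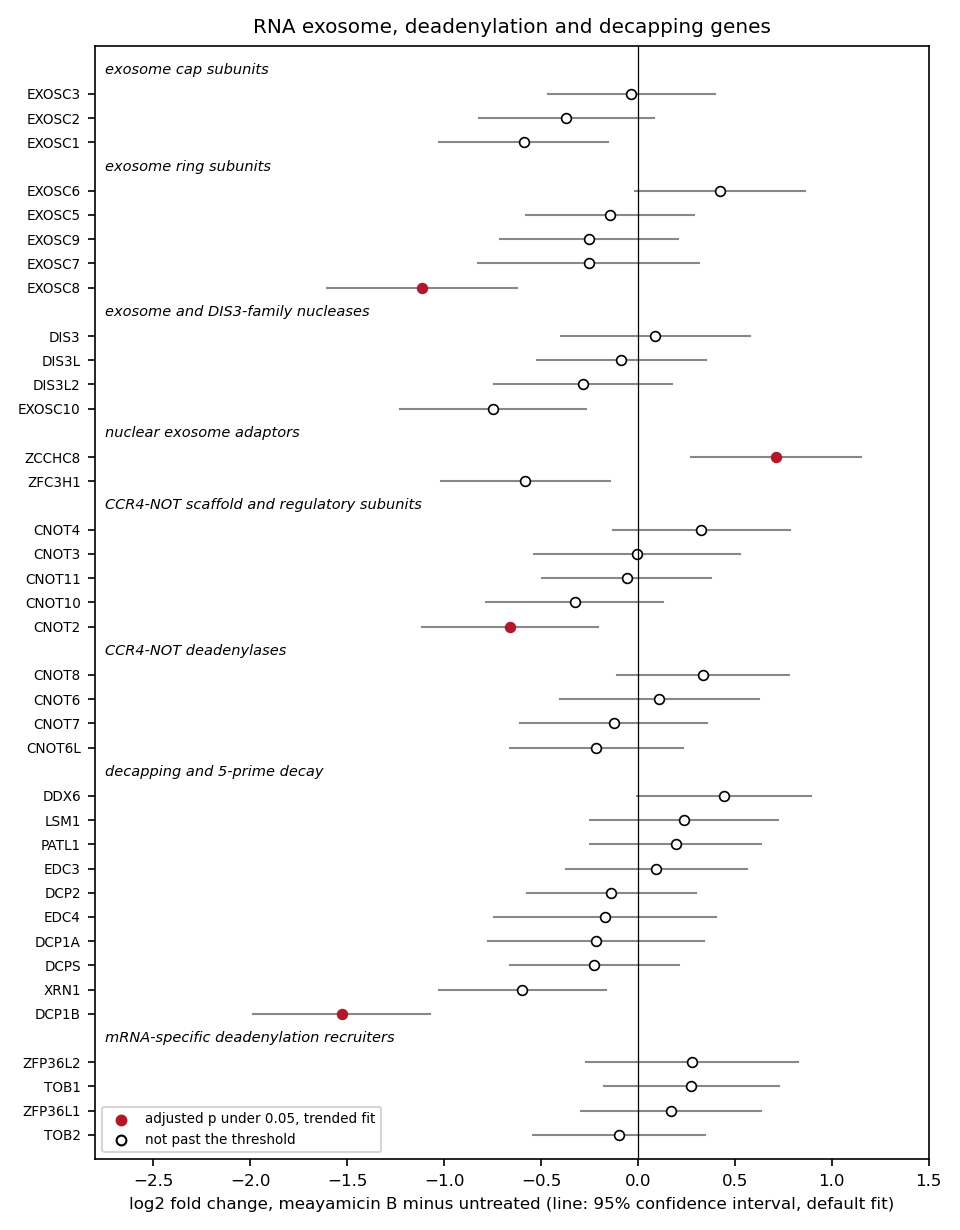
Log2 fold change of each of the 37 members (meayamicin B minus untreated, n = 2 arrays per group), grouped by role and sorted within each group; lines are 95% confidence intervals of the default fit. Filled points mark the 4 genes past the threshold of the trended fit: ZCCHC8 at 0.71 on the right, and CNOT2 at -0.66, EXOSC8 at -1.11 and DCP1B at -1.53 on the left.

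Among the genes of decapping and 5′ decay, DCP1B, which encodes a paralogue of the DCP1A cofactor that stimulates the decapping enzyme, had the lowest fold change of all 37 members. It measured 6.64 and 6.41 on the log2 scale on the meayamicin B arrays, against 8.02 and 8.08 on the untreated arrays. All 4 values were above background and the groups were far apart. Expression was 2.88-fold lower, a log2 fold change of -1.53 (SE 0.19 in the default fit and 0.17 in the trended fit, with differences of -1.38 and -1.68 between arrays of replicate number 1 and 2), with a limma adjusted p of 0.00365 in the trended fit and 0.0751 in the default fit. Its log2 fold change was -1.64 to -1.41 when an array was left out.

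DCP1A, the paralogue, measured 5.51 and 4.99 with meayamicin B, against 5.36 and 5.58 untreated, and 1 of the 2 meayamicin B values was below background. Its groups overlapped, and its log2 fold change was -0.22 (95% confidence interval -0.77 to 0.34). The log2 ratio of DCP1B to DCP1A was 1.12 on the meayamicin B array where both were above background, against 2.66 and 2.51 on the untreated arrays, and the remaining meayamicin B array gives only a bound. DCP2, the catalytic subunit of decapping, had a log2 fold change of -0.14 (95% confidence interval -0.57 to 0.30).

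XRN1, the cytoplasmic 5′-to-3′ exonuclease that acts after decapping, measured 7.21 and 7.22 with meayamicin B, against 7.81 and 7.81 untreated. These groups did not overlap, but the log2 fold change of -0.60 (SE 0.18) did not pass (limma adjusted p = 0.133 in the trended fit and 0.353 in the default fit). DDX6, a DEAD-box helicase that activates decapping and represses translation, lay at the other end of the group. It measured 10.58 and 10.39 with meayamicin B, against 10.07 and 10.02 untreated (log2 fold change 0.44, limma adjusted p = 0.0990 in the trended fit). Its partners PATL1, a scaffold of decapping, and LSM1, of the cytoplasmic Lsm ring, were at 0.19 and 0.24. The enhancers of decapping EDC3 and EDC4 were at 0.09 and -0.17, and DCPS, which hydrolyses the cap left after 3′ decay, was at -0.23. Besides DCP1B, none of the 10 genes of this group passed in either fit. An unadjusted p under 0.05 in the default fit was found for 2 of the 10, DCP1B and XRN1, against 27.6% of protein-coding genes above background.

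In the exosome barrel, EXOSC8, a subunit of the ring that is built from RNase PH-like proteins, measured 7.27 and 6.95 with meayamicin B, against 8.32 and 8.13 untreated. Each meayamicin B value was lower than both untreated values, and all were above background. Expression was 2.16-fold lower, a log2 fold change of -1.11 (SE 0.21 in the default fit and 0.17 in the trended fit, -1.04 and -1.18 between arrays of the same number), with a limma adjusted p of 0.0150 in the trended fit and 0.151 in the default fit. It missed the threshold of the trended fit without untreated replicate 1 (limma adjusted p = 0.0931), without untreated replicate 2 (0.0603) and without meayamicin B replicate 2 (0.0614).

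The other 4 measured ring subunits did not pass. EXOSC6, encoded by a gene without introns, measured 6.90 and 6.77 with meayamicin B, against 6.43 and 6.39 untreated. Its groups did not overlap, and its log2 fold change was 0.42 (95% confidence interval -0.01 to 0.86, limma adjusted p = 0.468 in the trended fit). EXOSC9 was at -0.25, EXOSC7 at -0.26 and EXOSC5 at -0.14, so the ring subunits spanned -1.11 to 0.42. Of the cap subunits, which bind RNA at the entry of the barrel, EXOSC1 measured 8.28 and 8.32 with meayamicin B, against 8.93 and 8.85 untreated. Its groups were apart, and its log2 fold change of -0.59 (SE 0.18) was the nearest to the threshold among the members that missed it (limma adjusted p = 0.0728 in the trended fit). EXOSC2 was at -0.37 (limma adjusted p = 0.354 in the trended fit), and EXOSC3 was at -0.04, with 8.11 and 8.13 with meayamicin B against 8.16 and 8.14 untreated.

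Of the nucleases, EXOSC10, the nuclear exonuclease that sits on the exosome, measured 7.04 and 7.36 with meayamicin B, against 7.88 and 8.00 untreated. The groups did not overlap, and the log2 fold change of -0.75 (SE 0.20) had a limma adjusted p of 0.0833 in the trended fit. EXOSC10 passed that fit with a replicate block or a filter on dim rows. DIS3, the main catalytic subunit, measured 9.17 and 8.84 with meayamicin B, against 9.00 and 8.83 untreated. Its values overlapped, with a log2 fold change of 0.09 (95% confidence interval -0.40 to 0.58). The direction of this small value is not settled, since it was -0.07 without meayamicin B replicate 1 and below 0 with the arrays centred on ribosomal protein genes. DIS3L, its cytoplasmic paralogue, was at -0.09, and DIS3L2, which degrades uridylated RNA without the exosome, was at -0.28.

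ZCCHC8, the scaffold of the NEXT complex that hands short nuclear transcripts to the exosome, was the only member called higher in the trended fit, and DDX6 was a second with a replicate block or a filter on dim rows. It measured 10.57 and 10.60 with meayamicin B, against 9.94 and 9.81 untreated. Both meayamicin B values exceeded both untreated values by over the spread within either group. Expression was 1.64-fold higher, a log2 fold change of 0.71 (SE 0.19 in the default fit and 0.10 in the trended fit, 0.64 and 0.79 between arrays of the same number), with a limma adjusted p of 0.0106 in the trended fit and 0.271 in the default fit. Without untreated replicate 2 its limma adjusted p in the trended fit was 0.0722. Among all protein-coding genes above background, 0.692% rose in that fit and 8.41% fell.

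ZFC3H1, the zinc finger protein of the PAXT connection, which directs longer polyadenylated nuclear transcripts to the exosome, measured 7.40 and 7.30 with meayamicin B, against 7.95 and 7.92 untreated. Its groups did not overlap in the opposite direction to ZCCHC8, but the log2 fold change of -0.58 (SE 0.18) did not pass (limma adjusted p = 0.141 in the trended fit). The log2 ratio of ZCCHC8 to ZFC3H1 within an array was 3.17 and 3.30 with meayamicin B and 1.99 and 1.89 untreated, a change of 1.29 (exact two-sided permutation test, p = 0.333, the smallest value that 2 arrays against 2 allow). The remaining proteins of NEXT are the RNA-binding protein RBM7 and the helicase MTREX. RBM7 was at 0.24 (95% confidence interval -0.33 to 0.82) and MTREX at -0.29 (95% confidence interval -0.72 to 0.15), and neither passed in either fit.

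**Figure D2:**
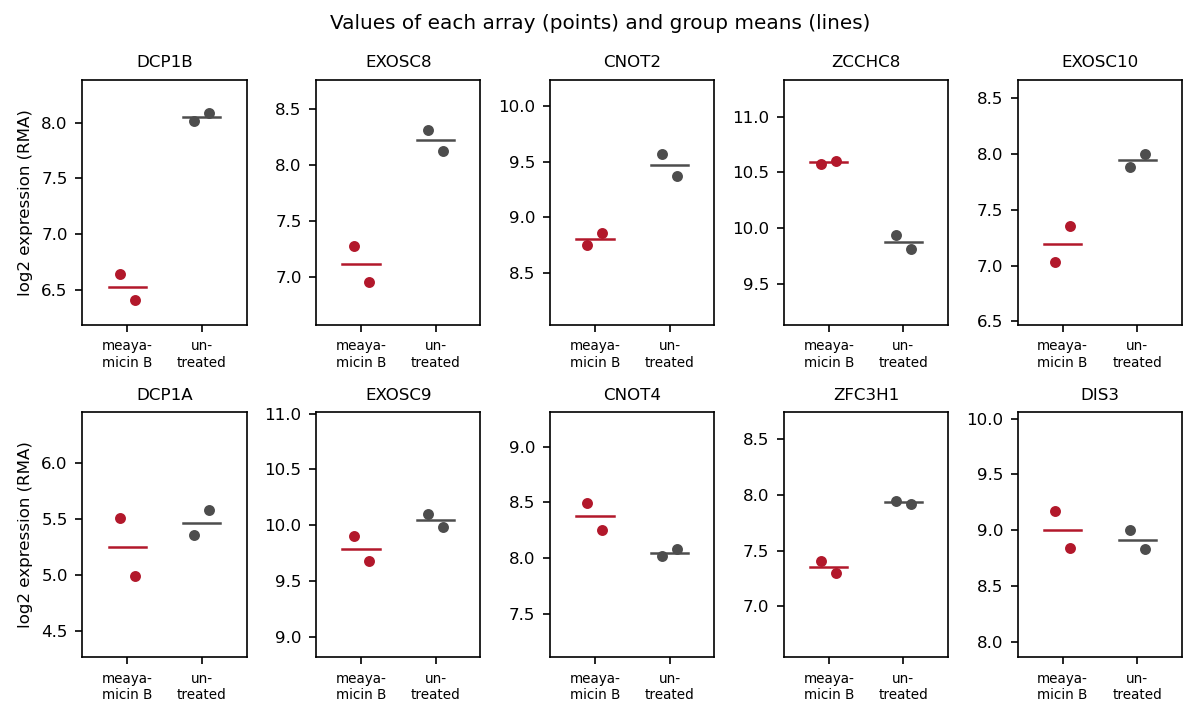
Log2 expression on each array (points, 2 per group, meayamicin B in red and untreated in grey) and group means (lines) for 10 members; every panel spans the same number of log2 units around its own mean. DCP1B, EXOSC8, CNOT2, EXOSC10, EXOSC9 and ZFC3H1 show meayamicin B arrays below the untreated ones, ZCCHC8 and CNOT4 show them above, and DCP1A and DIS3 overlap.

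For 3 of the 4 genes past the threshold the 150 bases before the RefSeq start site lie outside the gene's own span, and they are shown because these genes moved in both directions. The sequences are from RefSeq (GRCh38.p14), on the strand of the gene, with capitals marking matches to the motifs searched on both strands. DCP1B lies on chromosome 12 at 1941591 to 2004457 and the window is chr12:2004458-2004607, minus strand. EXOSC8 lies on chromosome 13 at 37000786 to 37009614 and the window is chr13:37000636-37000785, plus strand. ZCCHC8 lies on chromosome 12 at 122471600 to 122500932 and the window is chr12:122500933-122501082, minus strand.
DCP1B: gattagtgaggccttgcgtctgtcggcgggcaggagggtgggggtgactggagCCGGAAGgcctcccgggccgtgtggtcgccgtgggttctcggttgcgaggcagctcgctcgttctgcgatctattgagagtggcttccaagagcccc
EXOSC8: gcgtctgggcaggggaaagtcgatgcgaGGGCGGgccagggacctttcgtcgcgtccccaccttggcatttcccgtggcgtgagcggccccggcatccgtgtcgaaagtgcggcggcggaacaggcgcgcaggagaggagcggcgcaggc
ZCCHC8: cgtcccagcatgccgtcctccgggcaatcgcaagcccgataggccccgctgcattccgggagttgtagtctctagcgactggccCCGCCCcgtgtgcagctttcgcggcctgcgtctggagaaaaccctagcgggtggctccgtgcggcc
The DCP1B window holds 1 ETS core (CCGGAAG), a motif found in 9.66% of 15842 protein-coding windows of the same length and in 3 of the 35 member windows. The 35 are the windows available for the 41 listed genes. They include PAN2 and PAN3, which have no row of their own, and CNOT2, whose window lies inside its own span. The EXOSC8 and ZCCHC8 windows hold 1 GC box each (GGGCGG or its complement), found in 49.8% of all windows and in 22 of the 35 member windows. A CCAAT box (CCAAT) is in 12 of the 35 member windows and 26.6% of all windows, and TATAAA in 0 of 35 and 6.43%. A CRE (TGACGTCA) is in 0 of 35 member windows, against 1.98% of all windows. The arrays do not measure promoters, and a part of these motifs in the changes was not tested.

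In the CCR4-NOT complex, CNOT2, which with CNOT3 forms the NOT module of the complex, measured 8.75 and 8.86 with meayamicin B, against 9.57 and 9.37 untreated. The gene lies on chromosome 12 at 70243018 to 70354993. Its groups did not overlap, and expression was 1.58-fold lower, a log2 fold change of -0.66 (SE 0.19 in the default fit and 0.13 in the trended fit, -0.82 and -0.51 between arrays of the same number). Its limma adjusted p was 0.0406 in the trended fit and 0.327 in the default fit. This call was the weakest of the 4: it was lost without any 1 of the 4 arrays (limma adjusted p of 0.0854 to 0.228 in the trended fit) and after a second quantile normalization (0.103). CNOT3, the partner, measured 5.59 and 6.02 with meayamicin B, against 5.69 and 5.93 untreated, so its values overlapped fully. CNOT4, a ubiquitin ligase associated with the complex, was at 0.33 (95% confidence interval -0.13 to 0.78), CNOT10 at -0.33 and CNOT11 at -0.06, the last pair forming a module of their own.

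The deadenylases of the complex come as pairs of paralogues, of which 1 of each pair is incorporated at a time. CNOT8 measured 10.14 and 10.28 with meayamicin B, against 9.93 and 9.82 untreated, without overlap (log2 fold change 0.33, limma adjusted p = 0.263 in the trended fit), while its paralogue CNOT7 overlapped and was at -0.13. CNOT6 was at 0.11, with overlap, and CNOT6L at -0.21, without overlap. The change in the log2 ratio was 0.46 for CNOT8 over CNOT7 and 0.33 for CNOT6 over CNOT6L. Over the 7 ratios examined, the exact permutation p was 0.333 where the groups of ratios did not overlap and 0.667 where they did (0.467 and 0.667 after Benjamini-Hochberg adjustment over the 7), so this test could not pass 0.05 for any of them. The 7 include DCP1B over DCP1A at its measured values.

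TOB1 and TOB2, antiproliferative proteins that bridge CCR4-NOT to mRNA-bound proteins, were at 0.28 (95% confidence interval -0.18 to 0.73) and -0.10. ZFP36L1 and ZFP36L2 bind AU-rich elements and recruit the deadenylases. ZFP36L2 measured 9.94 and 10.36 with meayamicin B, against 9.70 and 10.05 untreated, and its log2 fold change was 0.28 (95% confidence interval -0.27 to 0.83). ZFP36L1 was at 0.17. Of these 4 recruiters, 0 passed in limma's default or trended fit, beside 9.10% of protein-coding genes above background in the trended fit. An unadjusted p under 0.05 in the default fit was found for 0 of the 4, against 27.6% of those genes. The groups of 3 overlapped, as did those of 3824 of the 10402 protein-coding genes. With 4 genes, these counts do not set the recruiters apart. Across all roles, the 33 members that did not pass in either fit lay between -0.75 and 0.44, and 23 of them were within 0.3 of 0.

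The 4 rows that name a member with a second gene cannot be assigned to either. The row of PAN2, the catalytic subunit of the PAN2-PAN3 deadenylase, and CNPY2 measured 5.73 and 5.67 with meayamicin B, against 6.69 and 6.55 untreated. Its groups did not overlap, and the log2 difference came to -0.92 (SE 0.19, limma adjusted p = 0.0601 in the trended fit and 0.169 in the default fit). The row of PAN3 and the pseudogene RNU6-82P was at 0.27 (SE 0.19), and that of EXOSC4 and MIR6847 at 0.29 (SE 0.19). The row of CNOT1, the scaffold of CCR4-NOT, and the small nucleolar RNA gene SNORA50A was at -0.06 (SE 0.18), with 10.01 and 9.95 with meayamicin B against 9.99 and 10.08 untreated.

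Gene span was set beside the fold changes as a property that the choice of members did not use. Across the 37 members, the log2 fold change and the log10 of the gene span in RefSeq had a Pearson r of -0.22 and a Spearman rho of -0.28. The same values were -0.22 and -0.24 across the 10402 protein-coding genes above background, which share arrays and normalization with the members. The 13 shortest members, spanning 4.21 to 15.7 kb, had log2 fold changes with a median of -0.10, the 12 of middle span, 17.4 to 45.4 kb, a median of -0.03, and the 12 longest, spanning 45.9 to 383 kb, a median of -0.26. Long genes were not all low: CNOT4, which spans 148 kb, was at 0.33, and EXOSC8, which spans 8.83 kb, was among the 3 members called lower in the trended fit.

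**Figure D3:**
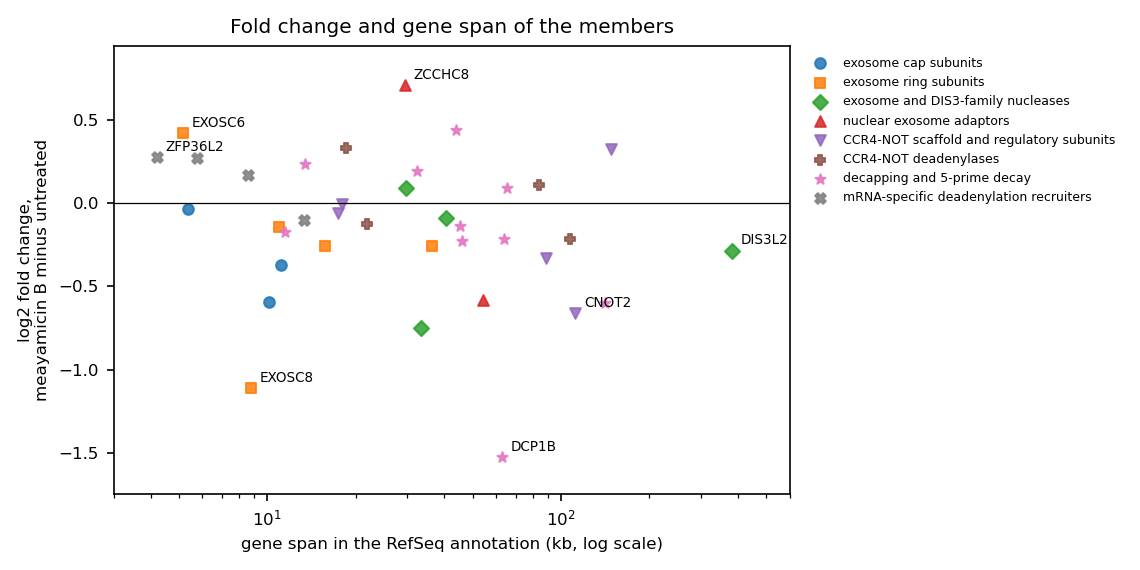
Log2 fold change of the 37 members (vertical axis, meayamicin B minus untreated) against the gene span in kb on a log axis, with a symbol for each role. DCP1B (62.9 kb) and EXOSC8 (8.83 kb) lie lowest, and DIS3L2, the longest at 383 kb, is at -0.28.

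Other genes of the same pathways were read from a list of 58, of which 50 had a row of their own. Of these, 7 fell and 0 rose in limma's trended fit (14%, beside 9.10% of protein-coding genes above background), and 0 passed in the default fit, where 11 had an unadjusted p under 0.05 (22%, against 27.6% of those protein-coding genes). PARN, the poly(A)-specific ribonuclease that trims nuclear and noncoding RNAs, measured 6.99 and 6.96 with meayamicin B, against 9.00 and 8.67 untreated. It was 3.63-fold lower, further than any member, with a log2 fold change of -1.86 (SE 0.20, limma adjusted p = 0.00150 in the trended fit and 0.0651 in the default fit). XRN2, the nuclear counterpart of XRN1 that degrades RNA after 3′ cleavage, measured 8.45 and 8.35 with meayamicin B, against 9.39 and 9.44 untreated, and was 2.02-fold lower (limma adjusted p = 0.00532 in the trended fit). Neither gene's groups came near each other.

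EIF4ENIF1, which links the cap-binding protein eIF4E to DDX6, fell 2.16-fold (log2 fold change -1.11, SE 0.19, limma adjusted p = 0.0143 in the trended fit). TUT7, a uridylyltransferase that marks RNA for DIS3L2, was 1.77-fold lower (-0.82, SE 0.19, limma adjusted p = 0.00467 in the trended fit). ZFP36, the founding member of the family of ZFP36L1 and ZFP36L2, was 1.68-fold lower (-0.75, SE 0.19, limma adjusted p = 0.0153 in the trended fit). SKIC3, the scaffold of the SKI complex that feeds the cytoplasmic exosome, was at -0.84 (SE 0.21, limma adjusted p = 0.0317 in the trended fit). HBS1L, which acts in ribosome rescue and of which an isoform bridges SKI and exosome, was at -0.63 (SE 0.19, limma adjusted p = 0.0467 in the trended fit). After a second quantile normalization SKIC3 and HBS1L missed the threshold of that fit (limma adjusted p = 0.0594 and 0.116). PARN, XRN2, EIF4ENIF1, TUT7 and ZFP36 stayed past it. TENT4B, a noncanonical poly(A) polymerase that tags nuclear RNA for the exosome, had the highest value of the list at 0.60 (SE 0.19, limma adjusted p = 0.0677 in the trended fit). TENT4B did pass that fit, as higher, after a second quantile normalization, with a replicate block and with a filter on dim rows. The count of 7 was 3 without untreated replicate 2 and 4 without meayamicin B replicate 2, beside 2.33% and 4.50% of protein-coding genes above background.

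**Figure D4:**
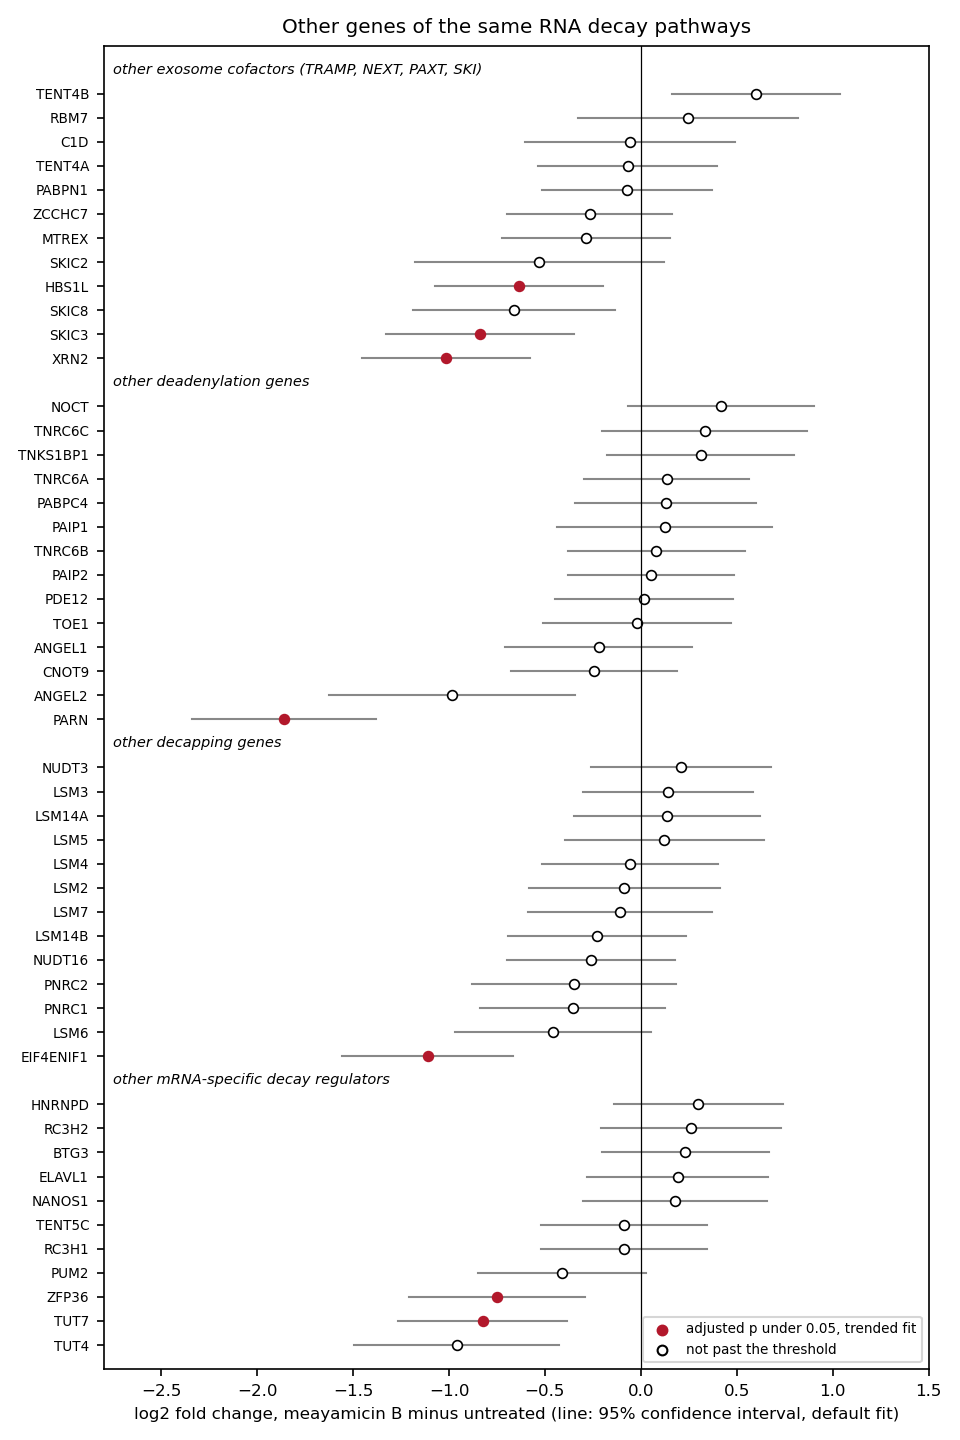
Log2 fold change (meayamicin B minus untreated, n = 2 arrays per group) with 95% confidence intervals of the default fit for 50 other genes of the same pathways. Filled points mark the 7 genes past the threshold of the trended fit, all below 0, with PARN lowest at -1.86; TENT4B is highest at 0.60.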

How the data were processed

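Per the submitters' processing notes, the authors used RMA and Transcriptome Analysis Console with build hg38, with no versions given. The unit of the deposited data, log2 expression, was read from the range of the values and from the RMA method. A shift of all RNA would be removed by that normalization. Of 138745 rows, 2995 control rows were left out and 135750 tested. Row names came from the platform annotation, and 25516 of 36176 single-symbol rows were updated by Entrez ID through a RefSeq table of GRCh38.p14. Where a gene had several rows, the one highest on average was kept.

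Meayamicin B was compared with untreated in limma 3.58.1 (R 4.3.3), with Benjamini-Hochberg adjustment over all rows and a threshold of 0.05, once with the default prior and once with a trended, robust prior (the trended fit). Unless the trended fit is named, SEs and intervals come from the default fit. The trended fit gives the same log2 fold changes with SEs and p-values of its own, so a default SE is not the error behind a trended adjusted p. The members, lists and both fits were chosen with earlier results of these data known. All members past a threshold, the highest and lowest of each role, and the other listed genes likewise were named by rule, and others were added after their values were seen. Deviations of same-numbered arrays had r = 0.02 across all rows, and 0.10 across named genes above background. No pairing was used in the main fits. Counts depend on this choice: with a replicate block the trended fit called 18.2% of protein-coding genes above background, against 9.10% without it. The fits were run on simulated data in which the noise depended only on the signal level. That is what the trended prior assumes, so the run does not check the trended calls made here. Alternatives left out each array, used the replicate number as a block, dropped dim rows, repeated quantile normalization, centred arrays on 21 ribosomal protein genes, averaged a gene's rows or required 2-fold. Permutation tests used SciPy 1.17.1.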

Additional observations from a re-analysis of the deposited data

How the results depend on the processing

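In the default fit, 0 members were called under each alternative run except the filter on dim rows, which called 2 (DCP1B and EXOSC8, both lower, beside 9.24% of protein-coding genes above background), and the trended prior, which called 4. Besides these 4, EXOSC1, EXOSC10 and DDX6 passed the trended fit with a replicate block. The same genes with XRN1 and ZFC3H1 passed it with the filter on dim rows, and EXOSC1 also with centring. The trended count of 4 became 7 once a replicate block was added (5 lower and 2 higher, beside 18.2% of protein-coding genes above background). It was 9 with the filter on dim rows (7 lower and 2 higher, beside 19.9%), and 2 with a minimum of 2-fold. It was 1 to 3 when an array was left out. The 7 other pathway genes became 11 with the block and 11 with the filter, and 3 to 6 when an array was left out. Of the 11 in either run, 10 were lower and 1, TENT4B, was higher. After a second quantile normalization 6 were called, 5 lower and 1, TENT4B, higher. The median log2 fold change of the members was -0.018 after a second quantile normalization and -0.22 with centring on ribosomal protein genes, which moved the median of named genes above background by 0.06 and -0.09. It was -0.13 to -0.07 when an array was left out. The block, the filter, averaging a gene's rows and the trended prior leave a member's log2 fold change as it is. A sign could therefore change only under the other alternatives. Over 160 alternative values of 16 named members, those fixed values included, 3 changed sign: DIS3 at -0.0035 with centring and at -0.073 without meayamicin B replicate 1 (-0.073 to 0.25 over the arrays left out), and EXOSC3 at 0.081 after quantile normalization. The cause was not tested. With all arrays kept, DCP1B, ZCCHC8 and EXOSC8 were past the threshold of the trended fit after a second quantile normalization and with centring. CNOT2 was past it with centring but not after the second quantile normalization (limma adjusted p = 0.103). All 4 passed with the block and with the filter, which raised calls among all protein-coding genes. Averaging a gene's rows could not change a call, since each member has a single row. Each row summarises a whole gene, so isoforms and retained introns were not told apart, and DCP1A lay near background.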

Other observations

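Some other genes of the same pathways were measured only on rows that also name a second gene, so their values cannot be assigned. The row of PABPC1, the main cytoplasmic poly(A)-binding protein, and MIR7705 measured 12.30 and 12.29 with meayamicin B, against 12.33 and 12.31 untreated. The row of BTG1, an antiproliferative relative of TOB1, and LINC01619 was below background on both meayamicin B arrays and above it on both untreated arrays, with 3.83 and 4.67 with meayamicin B against 5.10 and 5.56 untreated (limma adjusted p = 0.194 in the trended fit). The row of KHSRP, a binder of AU-rich elements, and MIR3940 was at -0.18 (SE 0.21), and that of ZC3H12A, an endonuclease of inflammatory mRNAs, and MIR6732 at -0.28 (SE 0.19). TUT4, the paralogue of TUT7, measured 4.33 and 4.82 with meayamicin B, both below background, against 5.50 and 5.58 untreated, and did not pass (limma adjusted p = 0.136 in the trended fit).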
